A study of Mus musculus with 10 samples.

Results

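The comparison described here set mouse embryonic fibroblasts that had lost Brg1 directly against fibroblasts that had lost Snf5. It used 7 of the 10 arrays of the series, namely the 4 arrays labelled Brg1-/- and the 3 labelled Snf5-/-, which were chosen by their labels. The other 3 arrays, of wild type cells, stayed outside the contrast but entered the estimate of spread. They also took part in the quantile normalization, the filter on low values and the choice of a probe set per gene. The labels give all 3 groups as primary fibroblasts from E13.5 embryos on a mixed C57BL/6 and 129 background. They also give all 3 groups, wild type included, a retrovirus carrying Cre and selection in puromycin at 2.5 ug/ml. The genotypes are given as Snf5-/-, Brg1-/- and wild type, with no further detail on the alleles, and whether replicates came from separate embryos or cultures is not stated, so every p-value below measures only the spread between these arrays. RNA was hybridised to Affymetrix arrays, and the deposited values are probe set intensities.

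SWI/SNF complexes use the energy of ATP to slide and evict nucleosomes, and so set which promoters and enhancers are open. Brg1, encoded by Smarca4, is an ATPase that drives this movement, and Brm, encoded by Smarca2, is its alternative. Snf5, encoded by Smarcb1, is a core subunit with no ATPase of its own, and both Snf5 and Brg1 are known as tumour suppressors. A direct contrast of the mutants asks which transcripts depend on which subunit is missing, apart from what both losses share.

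The arrays separated by genotype, and Snf5-/- replicate 2 stood apart from the other Snf5-/- arrays. On a principal component analysis of all tested genes in all 10 arrays, the second component (16.4% of the variance) held the Snf5-/- arrays at -31.9 to -13.7 and the Brg1-/- arrays at 8.1 to 16.5. On the third component (9.2%) Snf5-/- replicate 2 lay at -22.6, against 13.6 and 21.2 for replicates 1 and 3. The median standard deviation of a gene within its group was 0.21 (log2) in Snf5-/-, 0.19 in Brg1-/- and 0.15 in wild type. Median intensity was 173 ± 14.3 (SD, n = 3) in Snf5-/- and 156 ± 12.1 (n = 4) in Brg1-/-. That difference of -0.15 (log2) had an exact two-sided permutation p = 0.286, or 0.413 after adjustment over 13 array measures. The 35 ways to split 7 arrays allow no p below 0.0571, so this test cannot reach 0.05. The array medians overlapped, at 164 to 190 in Snf5-/- and 146 to 168 in Brg1-/-. The median difference of all tested genes was -0.20 (log2) as deposited and -0.01 once quantile-normalized. Whether the lower mean level of the Brg1-/- arrays is technical was not tested. Differences are given as Brg1-/- minus Snf5-/- in quantile-normalized log2 units, each with its standard error (SE). The deposited scale is named where it changes a call. Values of single arrays are deposited intensities, in the order of the replicate numbers.

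Markers of the labelled cell type were abundant in both mutants, although lower in Brg1-/-. All marker sums are of deposited intensities, whose array medians were lower on average in Brg1-/- but overlapped between the mutants. None of the 16 fibroblast markers was at or below background in all 7 arrays, and their summed intensity was 129231 to 151323 in Snf5-/- against 95199 to 117311 in Brg1-/-. The exact permutation p was 0.0571, the smallest possible, and 0.149 adjusted over the array measures. Macrophage and leukocyte markers, of which 19 of 20 were on the array and none was at background in all 7 arrays, summed to 3657, 12837 and 4251 in Snf5-/- against 5971, 3522, 2963 and 4225 in Brg1-/-. Snf5-/- replicate 2 was thus the highest of the 7 arrays for leukocyte markers. Epithelial and mesothelial markers summed to 2739 to 3428 in Snf5-/- against 2112 to 2595 in Brg1-/-, with Cdh1, Epcam, Krt15 and Pkp1 at or below background in all 7 arrays. Skeletal and cardiac muscle markers summed to 1429 to 2638 in Snf5-/- against 974 to 1183 in Brg1-/-, with Myf5, Myh8, Myl1, Tnnt1, Tnnc2 and Mylpf at background. Endothelial markers summed to 1690 to 2085 and 1444 to 1654, with Pecam1, Tie1 and Vwf at background, and neural and glial markers to 3031 to 3833 and 2286 to 2988, with Neurog2 and S100b at background. For cartilage and bone (Matn1, Cnmd, Dmp1 and Phex at background) the sums were 1989 to 3568 in Snf5-/- against 1192 to 2107 in Brg1-/-. For adipocytes (Adipoq, Lep and Cidec at background) they were 684 to 949 and 567 to 833, and for red blood cells (Hbb-bh1, Hbb-y, Alas2 and Epb42 at background) 173 to 214 and 105 to 323. In such bulk samples, fewer cells of a type and less RNA per cell cannot be told apart.

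Each targeted transcript was lower in the genotype named for it, but stayed above background in every array. Smarca4 was 2.47 ± 0.14 (log2, SE) lower in Brg1-/- than in Snf5-/- (limma adjusted p = 2.37e-06), and Smarcb1 was 1.82 ± 0.10 higher (adjusted p = 2.37e-06). Neither passed value changed side in any alternative run. Mean intensity of Smarca4 was 450 in Brg1-/-, 2807 in Snf5-/- and 2849 in wild type. That of Smarcb1 was 297 in Snf5-/-, 899 in Brg1-/- and 951 in wild type. The other tested probe set of Smarca4 passed (-1.97), and that of Smarcb1 (1.38) did not. Smarca2 measured 128, 114 and 199.6 in the Snf5-/- arrays, against 108, 134, 136 and 154 in those of Brg1-/-. The groups overlapped, and the difference of 0.04 ± 0.23 (adjusted p = 0.944) changed sign with the scale, at -0.12 on the deposited scale. Of 19 measured SWI/SNF subunits only the 2 targeted genes passed, and the median of the list was -0.00.

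Of 8398 tested genes, 373 (4.44%) differed between the mutants at an adjusted p under 0.05 (limma, two-sided), 180 (2.14%) higher in Brg1-/- and 193 (2.3%) higher in Snf5-/-. Without adjustment 1836 genes had p under 0.05. The array values of the mutants did not overlap for 16.9% of all genes. Among the 373 genes, 84 differed by over 1 on the log2 scale, 26 of them higher in Brg1-/- and 58 higher in Snf5-/-, and the median SE of a gene was 0.16. The balance of directions depended on the scale. On the deposited scale 361 genes (4.3%) differed, 31 (0.369%) higher in Brg1-/- and 330 (3.93%) higher in Snf5-/-, so the share higher in Brg1-/- was 48.3% after quantile normalization and 8.59% before it. Both scales called 206 genes (2.45%), 30 (0.357%) higher in Brg1-/- and 176 (2.1%) higher in Snf5-/-. The plot of differences against level on both scales shows this shift. The count also rested on single arrays. It was 195 without Snf5-/- replicate 2, 246, 141 and 121 without Brg1-/- replicates 1, 2 and 3, and 231 and 232 without wild type replicates 2 and 3.

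**Figure D1:**
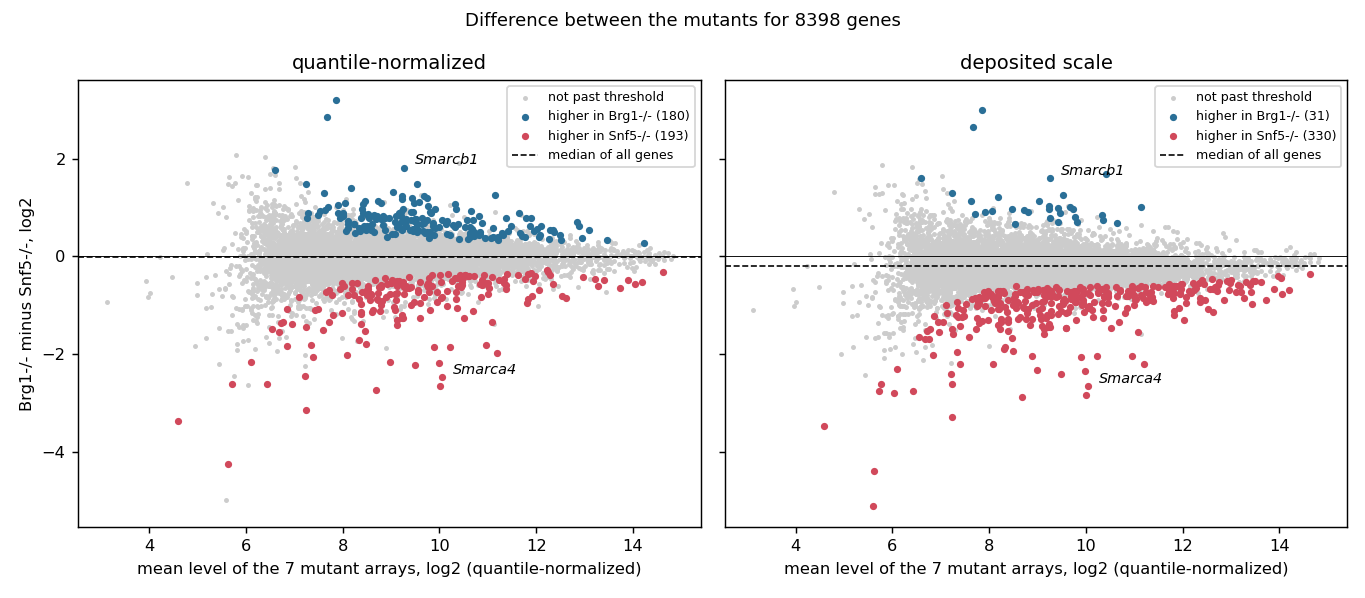
Difference between the mutants (Brg1-/- minus Snf5-/-, log2) against the mean level of the 7 mutant arrays (quantile-normalized log2), a point per gene, with quantile-normalized differences on the left and deposited-scale differences on the right. Coloured points passed an adjusted p of 0.05, and the dashed line is the median of all genes, at -0.01 on the left and -0.20 on the right. Genes higher in Brg1-/- number 180 on the left and 31 on the right.

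Of the 12 genes named by rule as higher in Snf5-/-, 4 are chemokine or interferon-induced genes (Ifi27l2a, Cxcl10, Ifit1 and Ifitm1) and 1, C1s1, encodes a complement protease. Mfap4, which encodes a microfibril-associated glycoprotein, measured 129, 690.5 and 197 in the Snf5-/- arrays, against 7.5, 20.8, 9.7 and 15.2 in those of Brg1-/-. All 4 Brg1-/- values lay at or below the background of their arrays, so Mfap4 was at least 5.58-fold higher in Snf5-/- (adjusted p = 0.0261). It did not pass the filter on low values when any of the 3 Snf5-/- arrays was left out, and lost its call without Brg1-/- replicate 3 and when probe sets were averaged. Fabp7, a fatty acid binding protein of glial progenitors, measured 187, 109 and 34.8 in Snf5-/- against 3.6, 22.5, 7.7 and 6.5 in Brg1-/-, again all at background, and was at least 1.93-fold higher in Snf5-/- (adjusted p = 0.044). Its wild type values of 178, 118 and 151 lay with those of Snf5-/-, and the call ended in 10 of the 18 alternatives that gave it a value.

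Of the 12 genes named as higher in Snf5-/-, Lsp1 and Grb14 had the smallest standard errors. The naming rule required that the mutant arrays of all 12 did not overlap. Lsp1, an actin-binding protein of leukocytes that fibroblasts also express, measured 2325, 1548 and 1444 in Snf5-/- against 245, 311, 375 and 398 in Brg1-/-, a difference of -2.22 ± 0.19 (adjusted p = 0.000183). Grb14, an adaptor that binds the insulin receptor, measured 1434, 1126 and 1031 in Snf5-/- against 186, 289.9, 209.8 and 275 in Brg1-/-, a difference of -2.16 ± 0.19 (adjusted p = 0.000196). Wild type arrays measured 1011, 771 and 619 for Lsp1 and 889, 891 and 818 for Grb14, between the mutants in both cases. Plk3, a polo-like kinase of stress responses, measured 227, 257 and 236 in Snf5-/- against 42.2, 62.4, 43.7 and 14.1 in Brg1-/- (-2.61 ± 0.48, adjusted p = 0.0131). Clca3a1, a calcium-activated chloride channel regulator, measured 357, 373 and 449 against 27.1, 104, 82.1 and 73.4 (-2.45 ± 0.35, adjusted p = 0.0045). For each of Plk3 and Clca3a1, 1 Brg1-/- array was at background. Sh3bgr, an SH3-binding glutamate-rich protein, differed by -2.16 ± 0.55 (adjusted p = 0.049), with 3 of 4 Brg1-/- arrays at background, and lost its call in 13 of 19 alternatives. The calls of Lsp1, Grb14, Plk3 and Clca3a1 held in every alternative in which they were tested.

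**Figure D2:**
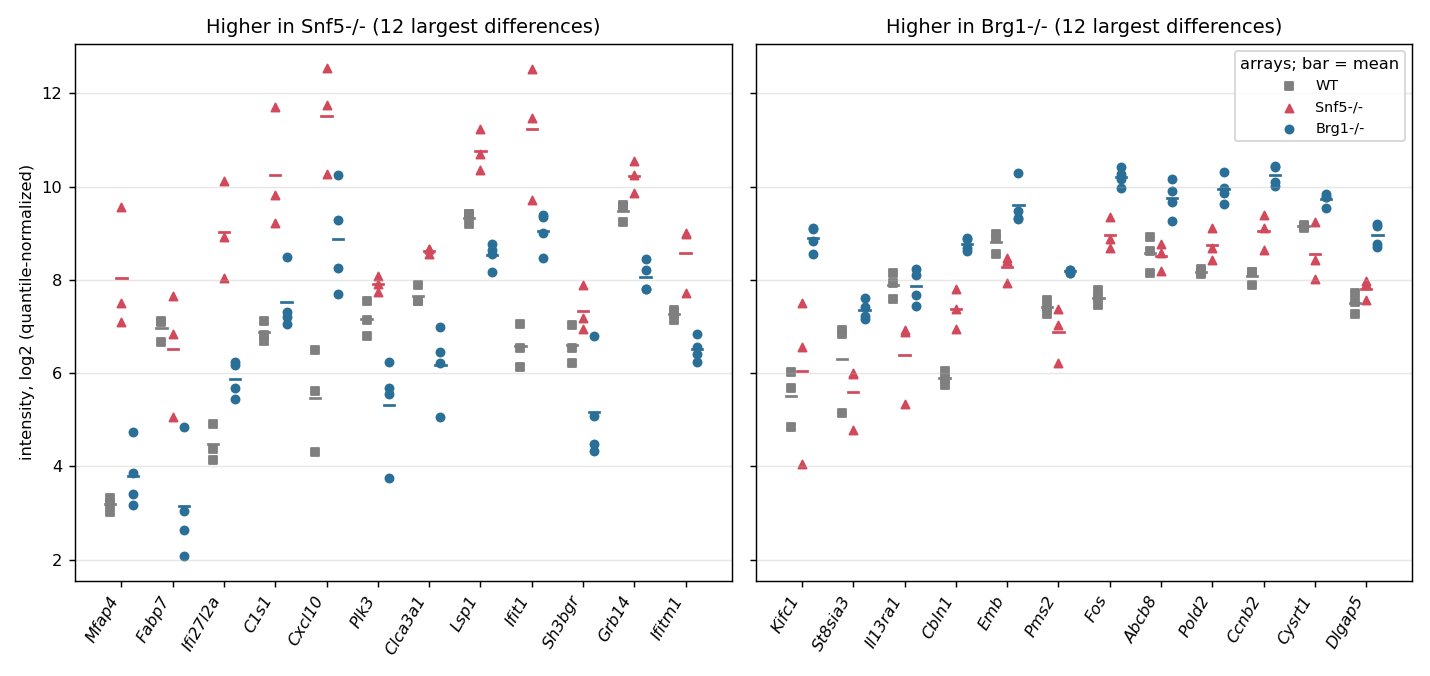
Quantile-normalized log2 intensity of the 12 genes with the largest differences in each direction, with 3 wild type arrays (squares), 3 Snf5-/- arrays (triangles) and 4 Brg1-/- arrays (circles) per gene and a bar at each group mean. The Snf5-/- and Brg1-/- arrays do not overlap for any of the 24 genes, which the rule for naming them required.

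The 12 genes named as higher in Brg1-/- held cell division genes beside genes of unrelated function. Kifc1, a minus-end kinesin that bundles spindle microtubules, measured 16.7, 91.1 and 197 in Snf5-/- against 469.7, 379, 509.9 and 343 in Brg1-/-, a difference of 2.86 ± 0.62 (adjusted p = 0.0261). Its Snf5-/- values were widely spread, with replicate 1 at background, and the call ended without Brg1-/- replicate 1, 2 or 3. Pold2, a subunit of DNA polymerase delta, measured 527, 381 and 382 in Snf5-/- against 823, 1042, 853 and 695 in Brg1-/- (1.20 ± 0.18, adjusted p = 0.00538). Ccnb2, a mitotic cyclin, measured 642, 369 and 614 against 850.4, 1107, 1272 and 949 (1.20 ± 0.18, adjusted p = 0.00501). Dlgap5, a spindle protein, measured 225, 179 and 277 against 365, 472, 553 and 382 (1.14 ± 0.18, adjusted p = 0.00604). For these 3 genes the wild type arrays lay near or below those of Snf5-/-, at 298 to 417 for Pold2, 269 to 400.3 for Ccnb2 and 201 to 239 for Dlgap5.

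The other genes of that direction were not cell cycle genes. Fos, an AP-1 transcription factor of the immediate early response, measured 448, 379.6 and 723 in Snf5-/- against 939.5, 1006, 1259 and 869.9 in Brg1-/- (1.24 ± 0.16, adjusted p = 0.00288), above 224 to 236 in wild type. Cbln1, a secreted synaptic organiser, measured 155, 118 and 246 against 347, 389, 448 and 359.8 (1.40 ± 0.21, adjusted p = 0.00501), but neither of its other probe sets passed and averaging them ended the call (adjusted p = 0.0587). Emb, the cell adhesion glycoprotein embigin, measured 229.9, 314 and 392 against 591, 525, 604 and 1071, where Brg1-/- replicate 4 was the highest (1.33 ± 0.23, adjusted p = 0.0109). Wild type arrays measured 506 to 578 for Emb, and after quantile normalization all 3 lay between the mutants. Pms2, a DNA mismatch repair protein, differed by 1.31 ± 0.23 (adjusted p = 0.0124), Abcb8, a mitochondrial transporter, by 1.24 ± 0.23 (adjusted p = 0.0131) and Cysrt1, a cysteine-rich tail protein, by 1.17 ± 0.22 (adjusted p = 0.0131). St8sia3, a sialyltransferase, and Il13ra1, a receptor subunit for interleukin 13, differed by 1.77 ± 0.46 (adjusted p = 0.0499) and 1.49 ± 0.36 (adjusted p = 0.0371). Both had a Snf5-/- array at background and lost their calls in many alternatives, 14 of 19 for St8sia3 and 10 of 19 for Il13ra1. The other tested probe sets of Il13ra1 differed by 0.75 and 0.23, and neither passed.

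Mitotic genes were higher in Brg1-/- as a group. Of 45 measured G2/M and mitosis genes, 24 passed as higher in Brg1-/- and 0 as higher in Snf5-/-, where 2.14% of all genes passed in that direction. The counts of the lists below stand beside the same shares of all genes, 2.14% higher in Brg1-/- and 2.3% higher in Snf5-/-. The median difference was 0.77 (log2), against -0.01 for all genes, and all 45 were above 0 after quantile normalization, as they were with array medians set equal. On the deposited scale 42 of 45 were above 0, the median was 0.56 and 7 passed. Leaving out each array in turn gave 11 to 25 passing genes, with 11 without Brg1-/- replicate 2 or 3 and 12 without Snf5-/- replicate 2. Ccna2, the cyclin of S phase and mitotic entry, measured 775, 728 and 1009.5 in Snf5-/- against 1289, 1722, 1681 and 1312 in Brg1-/- (1.07 ± 0.13, adjusted p = 0.00174). Ube2c, the ubiquitin-conjugating enzyme of the anaphase-promoting complex, measured 1210.1, 992 and 1119 against 1616, 1910.1, 2005 and 1620.3 (0.94 ± 0.12, adjusted p = 0.00234). Cks2, which binds cyclin-dependent kinases, differed by 0.79 ± 0.11 (adjusted p = 0.00484, or 0.0807 on the deposited scale). Wild type means lay below both mutants for all 24 passing genes. The other passing members included Kif2c, Incenp, Birc5, Mki67, Aurka, Cdc20, Top2a and Cenpa. Ndc80, a kinetochore protein singled out after its values were seen, had the largest difference of the list at 1.83 but did not pass (adjusted p = 0.107).

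Replication genes were also higher in Brg1-/- as a group. Of 40 measured genes of DNA replication and the G1/S transition, 18 passed as higher in Brg1-/- and 0 as higher in Snf5-/-, with a median of 0.57 and 38 of 40 above 0. On the deposited scale the median was 0.36 and 3 passed, and 11 passed with array medians set equal. The count was 10 without Snf5-/- replicate 2 and 9 without Brg1-/- replicate 2 or 3. Mcm5, a subunit of the replicative helicase, measured 505, 368 and 370.4 in Snf5-/- against 588, 739, 808 and 693 in Brg1-/- (0.98 ± 0.17, adjusted p = 0.0103). Pold1, the catalytic subunit of DNA polymerase delta, measured 318, 382 and 386 against 504, 520.0, 549 and 636 (0.78 ± 0.12, adjusted p = 0.00604, or 0.0545 on the deposited scale). Pcna, the sliding clamp of DNA polymerases, differed by 0.63 ± 0.11 (adjusted p = 0.0115), but on the deposited scale its arrays overlapped and it did not pass (adjusted p = 0.237). The wild type mean was below both mutants for 13 of the 18 passing genes and between them for 5.

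Promoters of the cell cycle lists are shown because their members moved together. Sequences are from RefSeq (GRCm38.p6), are the 250 bases before the annotated gene start read 5′ to 3′ on the strand of the gene, and have motif matches on either strand in capitals. For mitotic genes the motifs searched were CCAAT (the NF-Y box) and TTTGAA (the core of the cell cycle homology region), and for replication genes TTTNNCGC (an E2F core). Ccnb2 is from chr9:70421555-70421804 (minus strand), Ube2c from chr2:164769679-164769928 (plus) and Mcm5 from chr8:75109259-75109508 (plus).
Ccnb2: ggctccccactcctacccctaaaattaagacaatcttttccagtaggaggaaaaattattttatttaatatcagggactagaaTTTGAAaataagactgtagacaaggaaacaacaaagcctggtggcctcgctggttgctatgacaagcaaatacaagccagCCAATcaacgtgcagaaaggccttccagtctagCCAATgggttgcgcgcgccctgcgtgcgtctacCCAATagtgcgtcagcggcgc
Ube2c: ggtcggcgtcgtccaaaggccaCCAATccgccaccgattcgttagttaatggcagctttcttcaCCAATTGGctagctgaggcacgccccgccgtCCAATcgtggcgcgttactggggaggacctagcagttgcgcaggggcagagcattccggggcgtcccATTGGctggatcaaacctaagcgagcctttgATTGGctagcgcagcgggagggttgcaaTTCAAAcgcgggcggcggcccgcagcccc
Mcm5: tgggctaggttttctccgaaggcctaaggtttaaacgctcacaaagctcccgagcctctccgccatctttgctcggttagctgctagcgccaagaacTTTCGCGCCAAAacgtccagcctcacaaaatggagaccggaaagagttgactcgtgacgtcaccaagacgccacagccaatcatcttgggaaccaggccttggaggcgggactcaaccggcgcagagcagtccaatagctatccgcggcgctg
Ccnb2 held CCAAT matches starting 87, 54 and 21 bases before the gene start and TTTGAA at 167 bases. Ube2c held 6 CCAAT matches, of which those at 186 and 183 bases overlap, and TTTGAA on the reverse strand at 29 bases. In Mcm5 a pair of overlapping TTTNNCGC matches started 153 and 149 bases before the start. Neither of the 2 promoters of Pold2 in the table held TTTNNCGC. CCAAT was present in 32 of 42 promoters of measured mitotic genes (76.2%) and in 33.8% of all 32851 promoters of the table, and TTTGAA in 16 of 42 (38.1%) against 16%. TTTNNCGC was present in 9 of 40 promoters of measured replication genes (22.5%) against 4.28% of all promoters. Over the 6842 tested genes with a promoter in the table, the shares of their 8844 promoters were 34.8%, 10.3% and 7.07%. A match is a stretch of letters and not a measured binding site.

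The CDK inhibitors Cdkn1a and Cdkn1c were lower in Brg1-/-. Of 13 measured D-type cyclins, CDK inhibitors and Rb family genes, 3 passed as higher in Snf5-/- and 0 as higher in Brg1-/-, with 8 of 13 below 0. The median was -0.15, or 0.05 without Snf5-/- replicate 3. Cdkn1a (p21) measured 8752, 8082 and 9830.4 in Snf5-/- against 4142, 3534, 3806 and 4669 in Brg1-/- (-0.86 ± 0.10, adjusted p = 0.00143). Wild type arrays measured 8539 to 11434, and after quantile normalization all 3 lay between the mutants. Cdkn1c (p57), an imprinted inhibitor, measured 518, 860.0 and 586 in Snf5-/- against 172, 205, 239 and 188 in Brg1-/- (-1.52 ± 0.20, adjusted p = 0.00264), against 718 to 1387 in wild type. The calls of Cdkn1a and Cdkn1c held in all 20 alternatives. Rb1, the retinoblastoma protein, differed by -0.74 ± 0.18 (adjusted p = 0.043) and lost its call in 11 of 20. Of 27 measured p53 targets 2 passed, Cdkn1a and Zmat3, both higher in Snf5-/-, where 2.3% of all genes passed in that direction. A difference below 0 was seen for 23 of 27, with a median of -0.19. Zmat3, an RNA-binding zinc finger protein, differed by -0.44 ± 0.09 (adjusted p = 0.0261, or 0.0525 on the deposited scale). The p53 count was 1 without Snf5-/- replicate 2 or Brg1-/- replicate 2 or 3 and 4 without Brg1-/- replicate 4.

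Interferon-induced genes were higher in Snf5-/-, and Snf5-/- replicate 2 was the highest array. Of 32 measured genes of the interferon response, 7 passed as higher in Snf5-/- and 0 as higher in Brg1-/-, where 2.3% of all genes passed in that direction. The median difference was -0.83, 30 of 32 were below 0, and 16 passed on the deposited scale. The mean level of the list, relative to the mean of all 10 arrays, was 0.23, 1.70 and 0.98 (log2) in the Snf5-/- arrays, against -0.14, 0.19, -0.00 and 0.11 in those of Brg1-/-. Replicate 1 of Snf5-/- was close to the Brg1-/- arrays. Without replicate 2 the median was -0.48 and 2 of 31 genes passed, Bst2 and Ifitm1. Without replicate 1 the median was -1.19 and 18 passed, and without Snf5-/- replicate 3 or Brg1-/- replicate 1, 2 or 3 the count was 3. Leaving out wild type replicate 2 or 3 gave 4.

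Bst2 (tetherin), which holds budding virus at the cell surface, measured 1663, 3684 and 2464 in Snf5-/- against 624, 527, 561 and 689 in Brg1-/- (-1.85 ± 0.23, adjusted p = 0.00166). Wild type arrays measured 480.1 to 588, and after quantile normalization all 3 lay below every Brg1-/- array. The call held in all 20 alternatives. Ifi27l2a, an interferon-inducible protein of unclear role, measured 247, 446 and 1216 against 42.3, 58.9, 71.9 and 43.1 (-3.14 ± 0.46, adjusted p = 0.00484). The call of Ifi27l2a held in the 16 alternatives that gave it a value. It did not pass the filter on low values when any of the 3 Snf5-/- arrays was left out. Ifitm1, a membrane protein that blocks viral entry, measured 195, 467 and 571 against 70.7, 93.7, 71.2 and 91.8 (-2.06 ± 0.29, adjusted p = 0.0045). For Ifitm1 the wild type arrays, at 154 to 205, lay above Brg1-/-. Ifit1, which binds viral RNA, measured 795, 5420.3 and 3119 against 298, 559, 480.1 and 585 (-2.18 ± 0.50, adjusted p = 0.0331), and without Snf5-/- replicate 2 it no longer passed (-1.54, adjusted p = 0.0804), among the 9 alternatives of 20 that ended its call. The other passing members were Ifitm3, Oasl2 and Ifih1. The wild type mean was below both mutants for 28 of the 32 measured genes.

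Promoters of interferon-induced genes were searched for GAAA followed by any 2 bases and a second GAAA, the core of the interferon-stimulated response element, on both strands. Ifit1 (chr19:34640639-34640888, plus strand) and Bst2 (chr8:71537473-71537722, minus strand) are shown as the passing genes of the interferon list that hold it. Matches are in capitals, with the same source and reading direction as above.
Ifit1: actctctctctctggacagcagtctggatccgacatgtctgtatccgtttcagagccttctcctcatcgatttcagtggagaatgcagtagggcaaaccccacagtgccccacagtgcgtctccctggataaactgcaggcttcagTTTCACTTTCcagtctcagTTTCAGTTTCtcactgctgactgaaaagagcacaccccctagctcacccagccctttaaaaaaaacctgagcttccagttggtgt
Bst2: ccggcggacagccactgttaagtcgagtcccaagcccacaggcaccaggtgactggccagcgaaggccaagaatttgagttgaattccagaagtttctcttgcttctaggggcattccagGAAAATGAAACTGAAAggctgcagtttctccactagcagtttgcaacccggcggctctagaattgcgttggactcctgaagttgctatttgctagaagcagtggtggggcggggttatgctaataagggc
Ifit1 held matches starting 104 and 85 bases before the gene start, and Bst2 a pair of overlapping matches at 130 and 124 bases. The motif was present in 10 of 31 promoters of measured interferon genes (32.3%) and in 2.98% of all promoters of the table. Of the 7 passing genes of the list 6 had a promoter in the table, and 2 of these held a match. Cxcl10, which passed in the chemokine list described below, also held a match, starting 213 bases before the gene start.

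H2-K1, Psmb10, Cxcl10 and C1s1 passed in the lists of antigen presentation, chemokine and complement genes, all higher in Snf5-/-. Of 12 measured MHC class I and antigen-processing genes, 2 passed as higher in Snf5-/- and 0 in the other direction, with a median of -0.50 and 11 of 12 below 0. H2-K1, a classical class I heavy chain, measured 2103, 4270.1 and 5312 in Snf5-/- against 1299, 1251, 1098 and 1299 in Brg1-/- (-1.34 ± 0.24, adjusted p = 0.0126). Psmb10, an immunoproteasome subunit, measured 433, 782 and 810.4 against 251, 298, 313 and 308 (-0.998 ± 0.20, adjusted p = 0.0174), and did not pass without Snf5-/- replicate 2 or Brg1-/- replicate 3. Class I genes are similar to each other in sequence, so the H2-K1 probe set may share signal with other class I genes. The other 3 H2-K1 probe sets had the same sign and none passed, and averaging the probe sets gave -0.77 (adjusted p = 0.0604). The list count was 4 without Snf5-/- replicate 1 and 1 without Snf5-/- replicate 2 or Brg1-/- replicate 3. Of 19 measured chemokines and cytokines 1 passed, and the median was -0.67, or -0.11 with 13 of 19 below 0 and none passing without Snf5-/- replicate 2. Cxcl10, a chemokine for T cells, measured 1207, 5454 and 3731 in Snf5-/- against 993, 171, 289 and 562 in Brg1-/- (-2.65 ± 0.66, adjusted p = 0.044), against 24.2 to 104 in wild type, and it did not pass without Snf5-/- replicate 2 (-2.14, adjusted p = 0.128), among the 12 alternatives of 20 that ended its call. Of 8 measured complement genes 1 passed, and the median was -0.27, or -0.15 without Snf5-/- replicate 2 and -0.64 without replicate 1. C1s1, the C1s protease, measured 569, 836 and 3590.0 in Snf5-/- against 110.0, 132, 141 and 333 in Brg1-/- (-2.73 ± 0.49, adjusted p = 0.0124), with replicate 3 of Snf5-/- the highest. The mean level of the 15 measured leukocyte markers moved with these lists in Snf5-/- replicate 2, at -0.16, 1.61 and -0.36 (log2) in Snf5-/- against 0.53, -0.03, -0.52 and -0.10 in Brg1-/-. None of those 15 markers passed (median -0.32, or 0.18 without Snf5-/- replicate 2), and their part in the interferon and chemokine differences was not tested.

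**Figure D3:**
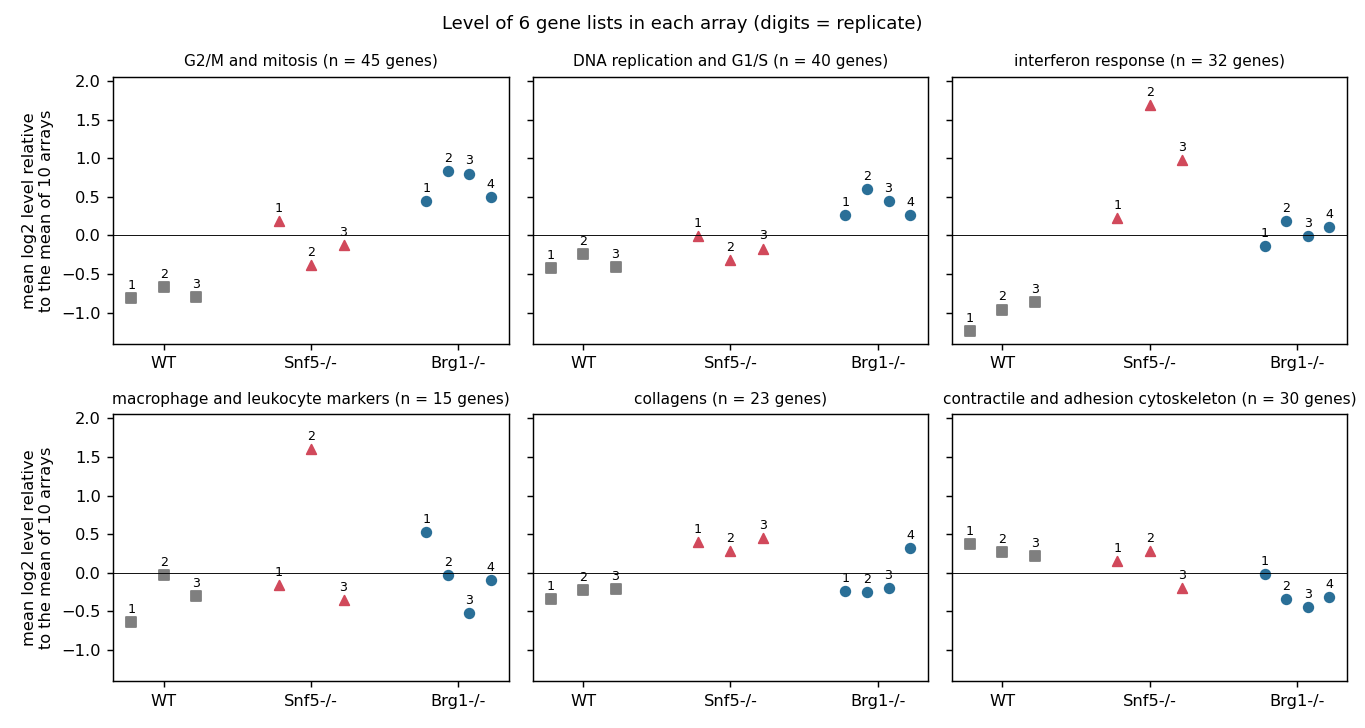
Mean quantile-normalized log2 level of the measured genes of 6 lists in each of the 10 arrays, relative to the mean of all arrays, with digits giving the replicate. For the interferon response the Snf5-/- arrays lie at 0.23, 1.70 and 0.98 and the Brg1-/- arrays at -0.14 to 0.19, and Snf5-/- replicate 2 is also the highest array for leukocyte markers. For the G2/M and replication lists all 4 Brg1-/- arrays lie above all 3 Snf5-/- arrays.

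Col18a1, Col1a2 and Col1a1 were lower in Brg1-/-. Of 23 measured collagens, 3 passed as higher in Snf5-/- and 0 as higher in Brg1-/-, with a median of -0.47, and 9 passed on the deposited scale with a median of -0.69. Col18a1, the source of endostatin, measured 1969, 1798 and 2189 in Snf5-/- against 333, 468, 410.4 and 786 in Brg1-/- (-1.86 ± 0.26, adjusted p = 0.00415), and wild type arrays at 407 to 599.7 lay with Brg1-/-. Col1a2 measured 22525, 22379.9 and 25058 against 12661, 13873, 16039.9 and 15556 (-0.53 ± 0.08, adjusted p = 0.00484). Col1a1, which with Col1a2 forms type I collagen, differed by -0.57 ± 0.12 (adjusted p = 0.0204). The mean level of the list was 0.40, 0.29 and 0.46 in Snf5-/- against -0.24, -0.25, -0.20 and 0.32 in Brg1-/-, so Brg1-/- replicate 4 lay among the Snf5-/- arrays. Without Brg1-/- replicate 4 the count was 8, and without Snf5-/- replicate 3 it was 6. It was 2 without Snf5-/- replicate 1 or 2 or Brg1-/- replicate 2 or 3, each of which ended the call of Col1a1. The summed fibroblast markers, which hold Col1a1 and Col1a2, were 129231 to 151323 in Snf5-/- and 95199 to 117311 among the Brg1-/- arrays. Those sums are on the deposited scale, and the part of these markers in the differences was not tested.

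Of 35 elastic fibre and matricellular genes, 5 passed as higher in Snf5-/- and 1, Ccn1, as higher in Brg1-/-, with a median of -0.23. Ccn1 (0.62) did not pass on the deposited scale. Eln (elastin) measured 511, 632 and 574 in Snf5-/- against 163, 206, 173 and 256 in Brg1-/- (-1.38 ± 0.21, adjusted p = 0.00604). Efemp1 (fibulin 3) measured 918, 696 and 896 against 276, 353, 398 and 356 (-1.10 ± 0.13, adjusted p = 0.00166), far under wild type at 2414 to 4128 in both mutants. Mfap5, a microfibril glycoprotein, differed by -1.10 ± 0.25 (adjusted p = 0.0297), and lost its call in 6 of 20 alternatives. The count higher in Snf5-/- was 9 without Brg1-/- replicate 4, 3 without Snf5-/- replicate 1 or Brg1-/- replicate 1 or 2, and 2 without Snf5-/- replicate 2 or Brg1-/- replicate 3. Of 19 matrix proteases and inhibitors 2 passed, both higher in Snf5-/-. Serpinf1 (PEDF), an inhibitor of blood vessel growth, measured 3977, 4569 and 3715 in Snf5-/- against 584, 1068, 968 and 1573 in Brg1-/- (-1.82 ± 0.28, adjusted p = 0.00587), and wild type arrays at 4395 to 5464 lay with Snf5-/-. Mmp2 (gelatinase A) differed by -0.77 ± 0.17 (adjusted p = 0.0253), and did not pass without Snf5-/- replicate 2 or Brg1-/- replicate 1, 2 or 3. The list count was 5 without Snf5-/- replicate 1 and 1 when any of those 4 arrays was left out.

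Actg2, Myh11 and Actc1 were the genes of the contractile list that passed. Of 30 measured contractile and adhesion genes, 3 passed as higher in Snf5-/- and 0 as higher in Brg1-/-, with a median of -0.20, and 9 passed without Snf5-/- replicate 3. Actg2, smooth muscle gamma actin, measured 6106, 4632 and 4647 in Snf5-/- against 1626, 856, 838 and 1266 in Brg1-/- (-1.97 ± 0.22, adjusted p = 0.00136). Myh11, smooth muscle myosin heavy chain, measured 279.9, 417 and 299 against 83.4, 74.1, 72.6 and 112 (-1.82 ± 0.25, adjusted p = 0.00329). Actc1, cardiac actin, differed by -1.08 ± 0.23 (adjusted p = 0.0247) and did not pass without either Snf5-/- replicate 1 or 2 or Brg1-/- replicate 1, 2 or 3. For all 3 genes the wild type mean lay between the mutants. The summed muscle markers, which hold Actc1, and the summed fibroblast markers given above were also lower in the Brg1-/- arrays. Those sums are on the deposited scale, and the part of these markers in the differences was not tested.

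**Figure D4:**
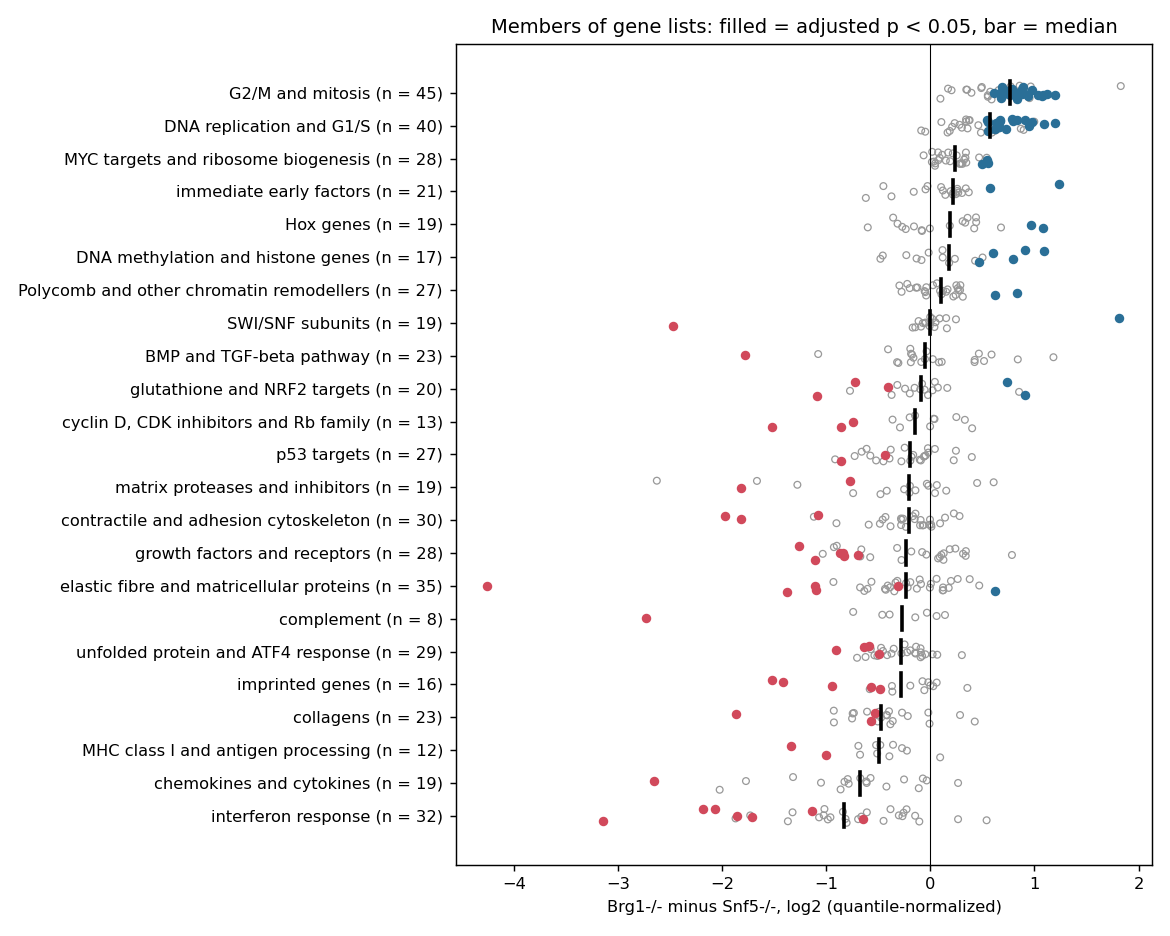
Brg1-/- minus Snf5-/- difference (quantile-normalized log2) of every measured member of 23 gene lists, ordered by list median (black bar). Filled points passed an adjusted p of 0.05 (blue higher in Brg1-/-, red higher in Snf5-/-) and open points did not, and vertical jitter carries no meaning. The medians run from -0.83 for the interferon response to 0.77 for G2/M and mitosis.

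Growth factor and imprinted genes that passed were all higher in Snf5-/-. Of 28 measured growth factors and receptors, 6 passed as higher in Snf5-/- (Ereg, Igfbp2, Igfbp6, Pdgfrb, Igfbp5 and Pdgfc) and 0 as higher in Brg1-/-, with a median of -0.23, and 3 passed without Brg1-/- replicate 3. Igfbp6, a binding protein for insulin-like growth factors, measured 817, 668 and 556 in Snf5-/- against 180.0, 311, 320.0 and 328 in Brg1-/- (-1.11 ± 0.21, adjusted p = 0.0148). Pdgfrb, a receptor for platelet-derived growth factor, differed by -0.84 ± 0.16 (adjusted p = 0.0159), Igfbp2 by -0.87 ± 0.16 (adjusted p = 0.0129) and Ereg (epiregulin) by -0.70 ± 0.12 (adjusted p = 0.0115). Of 16 imprinted genes, 5 passed as higher in Snf5-/- (Cdkn1c, Igf2, Igf2r, Ndn and Nnat) and 0 as higher in Brg1-/-, with a median of -0.28, and 3 passed without Snf5-/- replicate 1 or Brg1-/- replicate 2 or 3. Igf2, the fetal growth factor, measured 18280.5, 18642 and 18851 in Snf5-/- against 10990.4, 12892, 12299.7 and 10535 in Brg1-/- (-0.48 ± 0.07, adjusted p = 0.00484), and its call was lost when the probe sets of a gene were averaged. Igf2r, which clears Igf2, measured 4538, 7038 and 4467 against 1983, 2052, 2674 and 2501 (-0.95 ± 0.17, adjusted p = 0.0124). Ndn (necdin) differed by -0.57 ± 0.12 (adjusted p = 0.0241), but lost its call in 9 of 20 alternatives, and none of its other 4 probe sets passed. Of 23 BMP and TGF-beta pathway genes 1 passed as higher in Snf5-/-, where 2.3% of all genes passed in that direction. Inhbb, the beta B subunit of activins, measured 676, 668 and 819.7 in Snf5-/- against 152, 149, 186 and 287 in Brg1-/- (-1.78 ± 0.20, adjusted p = 0.00136), and wild type arrays at 683 to 835 lay with Snf5-/-. The other tested probe set of Inhbb differed by -0.59 and did not pass.

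Patterning lists had medians of 0.19 (Hox), 0.01 (mesenchymal and limb factors), -0.02 (Hedgehog) and 0.24 (Wnt). Among all tested genes 2.14% passed as higher in Brg1-/- and 2.3% as higher in Snf5-/-. Of 19 measured Hox genes, which set position along the body and limb axes, 2 passed as higher in Brg1-/- and neither did on the deposited scale. Hoxa9 differed by 0.97 ± 0.20 (adjusted p = 0.0228) and Hoxd13 by 1.08 ± 0.27 (adjusted p = 0.0434), and neither passed without Snf5-/- replicate 1 or 2 or Brg1-/- replicate 2 or 3. The other tested probe set of Hoxa9 differed by 0.31 and did not pass. Hoxd13 measured 134, 202 and 398 in Snf5-/- against 328, 322, 501 and 537 in Brg1-/-, so the groups overlapped before quantile normalization. Of 32 mesenchymal and limb transcription factors 1 passed as higher in Brg1-/- (Osr1, 0.72, not on the deposited scale), and 16 lay above and 16 below 0. Of 7 Hedgehog genes Sufu, an inhibitor of Gli factors, passed as higher in Snf5-/- (-0.58, adjusted p = 0.034, or 0.0505 on the deposited scale). None of 20 Wnt pathway genes passed on the quantile-normalized scale, and their median of 0.24 became -0.04 without Snf5-/- replicate 2. Of 21 immediate early factors Fos and Ier2 passed as higher in Brg1-/-, but Ier2 (0.58 ± 0.14, adjusted p = 0.0429) lost its call in 12 of 20 alternatives.

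Of 29 genes of the unfolded protein and ATF4 responses, 4 passed as higher in Snf5-/- and 0 as higher in Brg1-/-, with a median of -0.28 and 26 of 29 below 0, and the count was 2 without Snf5-/- replicate 2 or Brg1-/- replicate 3 and 1 without Brg1-/- replicate 2. Xbp1, a transcription factor of the unfolded protein response, measured 2239, 2438 and 2325 in Snf5-/- against 1295, 1279, 1309.7 and 1479 in Brg1-/- (-0.59 ± 0.10, adjusted p = 0.00946). Herpud1 differed by -0.90 ± 0.19 (adjusted p = 0.0213), Ddit3 (CHOP) by -0.64 ± 0.14 (adjusted p = 0.0253) and Aars, an aminoacyl-tRNA synthetase, by -0.49 ± 0.11 (adjusted p = 0.0261), and none of these 3 passed without Snf5-/- replicate 2 or Brg1-/- replicate 2. The other tested probe set of Herpud1 differed by -0.28 and did not pass. Glutathione and NRF2 genes went both ways, with 2 of 20 higher in Brg1-/- and 3 higher in Snf5-/-. Gstm2, a glutathione transferase, measured 249.5, 258 and 283 in Snf5-/- against 102, 129.7, 124 and 95 in Brg1-/- (-1.09 ± 0.17, adjusted p = 0.00614), and Gstm1 and Gpx4 also passed as higher in Snf5-/-. That count was 1 without Brg1-/- replicate 1, 2 or 3 or wild type replicate 2. Gsr, glutathione reductase, measured 594, 611 and 642 against 793, 1109.9, 1332 and 843 (0.91 ± 0.16, adjusted p = 0.0108). Srxn1, sulfiredoxin, differed by 0.74 ± 0.14 (adjusted p = 0.0147, or 0.109 on the deposited scale).

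The chromatin and growth-related genes that passed were all higher in Brg1-/- after quantile normalization, but the scale decided most of those calls. Over all tested genes 2.14% passed in that direction. Of 17 DNA methylation and histone genes 5 passed as higher in Brg1-/- (H2az1, Hmgb2, Dnmt1, Uhrf1 and H2ax), with a median of 0.18, which became -0.03 on the deposited scale, where Hmgb2 passed as higher in Brg1-/- and Hmga2 as higher in Snf5-/-. The count was 1 without Snf5-/- replicate 2 or Brg1-/- replicate 3 and 2 without Brg1-/- replicate 2. Hmgb2, a chromatin protein of dividing cells, measured 526, 335 and 539 in Snf5-/- against 688, 1011, 979 and 732 in Brg1-/- (1.09 ± 0.21, adjusted p = 0.0153), and did not pass without Snf5-/- replicate 2 or Brg1-/- replicate 3. Its other tested probe set differed by 0.33 and did not pass. Of 27 Polycomb and other remodeller genes, Hells (0.83 ± 0.17, adjusted p = 0.0202) and Ezh2 (0.62 ± 0.15, adjusted p = 0.037) passed as higher in Brg1-/-, and neither did on the deposited scale or without Snf5-/- replicate 2 or Brg1-/- replicate 2 or 3. Ezh2 lost its call in 11 of 20 alternatives. Of 28 MYC targets and ribosome biogenesis genes 3 passed as higher in Brg1-/- (Tfdp1, Ncl and Wdr12), with a median of 0.23, and 0 on the deposited scale, where the median was 0.02. None of the 3 passed without Snf5-/- replicate 2 or Brg1-/- replicate 2 or 3, and 8 genes of the list did without Brg1-/- replicate 4. The other 3 tested probe sets of Ncl differed by 0.26, 0.59 and 0.01, and none passed. Cholesterol and fatty acid synthesis had 1 of 22 (Lss, 0.78) and the proteasome 1 of 31 (Psmb6, 0.33) higher in Brg1-/-, neither of them on the deposited scale. None of 21 glycolysis and hypoxia genes (median -0.18, or 0.03 without Snf5-/- replicate 2) and none of 29 oxidative phosphorylation genes (median 0.05, or -0.20 on the deposited scale) passed.

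Among the marker lists, 3 of 16 fibroblast markers (Col1a2, Pdgfrb and Col1a1) passed as higher in Snf5-/-, with a median of -0.22. The count was 1 without Brg1-/- replicate 3, and the median was -0.08 without Brg1-/- replicate 1. Fabp7 was the passing gene of 9 measured neural and glial markers and Actc1 that of 5 muscle markers, both higher in Snf5-/-. None of 13 epithelial and mesothelial, 6 endothelial, 8 cartilage and bone or 5 adipocyte markers passed, and no red blood cell marker was measured above the filter.

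Wild type arrays took no part in the contrast, and their means are given here as a description of where each difference lay. Of the 180 genes higher in Brg1-/-, the wild type mean was below both mutants for 97 (53.9%), between them for 69 (38.3%) and above both for 14 (7.78%). Of the 193 genes higher in Snf5-/-, it was below both for 47 (24.4%), between them for 90 (46.6%) and above both for 56 (29%). Over all tested genes these shares were 40.7%, 22.4% and 36.9%. The wild type mean was nearer that of Snf5-/- for 134 of the 180 (74.4%) and for 106 of the 193 (54.9%), against 55.1% of all tested genes. A wild type mean outside the mutant means is nearer whichever mutant lies on its side, so these shares partly repeat the counts above. A gene that passed has its mutants further apart than most, so a larger share between them follows from the selection itself.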

How the data were processed

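Expression was measured on 10 arrays (3 wild type, 3 Snf5-/-, 4 Brg1-/-) grouped by their labels. The deposited values are probe set intensity on a linear scale, made by the authors with MAS5 per the submitters' processing notes. The sources used here do not give its version or scaling target. The table holds 22690 probe sets. GEO's platform annotation gives 1 gene symbol for 20380 of them, several for 691 and none for 1555, beside 64 controls, and symbols were updated through the gene identifier (20351 matched). Probe sets with no or several symbols and controls were left out. The probe set with the highest mean stood for a gene, and genes at or above the 40th percentile of the array in at least 3 arrays were kept (8398). Other tested probe sets of the named genes had the same sign as the one used. Many of them did not pass, and some gave much smaller differences. Log2 values were quantile-normalized over all 10 arrays, with no pseudocount, and the deposited log2 scale was fitted beside them. The model per gene held a mean for each group and was run in limma 3.58.1 under R 4.3.3, with a trended eBayes prior, and the contrast was Brg1-/- minus Snf5-/-, with 7 residual degrees of freedom from all 10 arrays. Tests were two-sided and adjusted by Benjamini-Hochberg over 8398 genes, with a threshold of 0.05. The script was tested on simulated data. Single array measures were compared with exact permutation tests (SciPy 1.17.1). The background of an array is the highest of its 27 Bacillus subtilis control probe sets (26.7 to 57.4). Where a whole group lay at or below it, the fold is a bound against it. With arrays, their number limits the precision.

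Named genes are Smarca4, Smarcb1 and Smarca2, the 12 largest differences in each direction among genes that passed on both scales, did not overlap between the mutants on either scale and had the higher group above background (loci with only a provisional name were skipped), and, for each list described, at most 4 genes ranked first by adjusted p. From those 4 only members that passed are described, and other genes are named only as counts of passing members or as singled out. The 39 gene lists hold 1022 genes, of which 762 were measured. The members, the lists and the rules were chosen with earlier results of these data known, so no list is independent evidence. Alternatives were other scalings, filters, probe set rules, variance priors, a pseudocount of 16, the 7 mutant arrays alone, the replicate number as a block, and each array left out in turn. Same-numbered Snf5-/- and Brg1-/- arrays did not deviate together, so the numbers were not taken to pair them.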

Additional observations from a re-analysis of the deposited data

Results flagged for a closer look

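Dixon's ratio, the gap between the outermost array and its nearest neighbour divided by the range, was computed for 92 sets of 4 Brg1-/- values, and 9 exceeded the 95% critical value for sets of 4. Chance alone flags about 1 in 20 such sets, or 4.6 here. Brg1-/- replicate 4 was the outermost array for Smarca4 (ratio 0.871, 607 intensity units, the highest), Smarcb1 (0.833), Emb (0.834, the highest at 1071), Mmp2 (0.927, the highest at 1850.2) and Gpx4 (0.838, the highest at 3413). Brg1-/- replicate 3 was the lowest for H2-K1 (0.928), and Brg1-/- replicate 2 was the outermost for Zmat3 (0.835) and Hells (0.834). The summed endothelial markers of the Brg1-/- arrays also exceeded it (0.881). The Snf5-/- group, with 3 arrays, was too small for this ratio.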

How the results depend on the processing

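Smarca4 and Smarcb1 kept their direction and their call in all 20 alternatives, at -2.63 to -2.42 and 1.77 to 1.85 with each array left out in turn. The count of genes that differed (373, with 180 higher in Brg1-/- and 193 higher in Snf5-/-) was 361 on the deposited scale (31 and 330), 292 with array medians set equal (83 higher in Brg1-/-), 154 on the 7 mutant arrays alone (74 and 80) and 192 in eBayes without trend (91 genes higher in Brg1-/- than in Snf5-/- and 101 genes higher in Snf5-/- than in Brg1-/-). Of the 361 genes called on the deposited scale 206 were among the 373. With each array left out in turn the count ranged from 121 to 491 (51 to 234 and 70 to 257). With the replicate number as a block 462 genes passed, 301 of them shared with the 373, but the numbers did not pair the arrays (correlations of deviations 0.004, -0.074 and 0.062 for the Snf5-/- and Brg1-/- arrays of replicates 1 to 3), and Brg1-/- replicate 4 stands alone in its block. Smarca2 changed sign on the deposited scale (-0.12) and when single arrays were left out (from -0.0931 without Snf5-/- replicate 2 to 0.217 without Snf5-/- replicate 3). The difference in array median stayed below 0 (-0.19 to -0.08). The cause of these changes was not tested. With 3 and 4 arrays a group, true log2 differences near the median SE of 0.16 are not detectable.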

Other observations

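Among large differences singled out after their values were seen, U90926 was 3.20 higher in Brg1-/- (adjusted p = 0.0434, mean intensity 583 against 109 in Snf5-/- and 24.4 in wild type), and Gm6211 was lower in Brg1-/- (-2.61, adjusted p = 0.0131, mean intensity 23.1 against 146). Ifi202b, an interferon-induced gene of the p200 family, had the largest difference of all tested genes (-4.99, mean intensity 464 in Snf5-/- against 62.4 in Brg1-/-). The difference is of mean log2 values and the intensities are means of deposited values, so their ratio does not give its size. Ifi202b did not pass on the quantile-normalized scale (adjusted p = 0.0573) although it did on the deposited scale (adjusted p = 0.0131). The ratios of 3-prime to 5-prime signal differed between the mutants by -0.05 (log2, exact permutation p = 0.229) for beta-actin and -0.08 (exact permutation p = 0.286) for Gapdh, and the spiked hybridization controls by 0.02 (exact permutation p = 0.686).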
